A study of Zea mays with 24 samples.

Results

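The comparison described here sets source leaves of low-nitrate maize plants (low N, 0.15 mM KNO3) against leaves of fully supplied plants (control N, 15 mM KNO3). It was chosen by the titles of the samples, which give 4 low N and 4 control N arrays among the 24 arrays of the series, and it was described across all 41780 transcript probes of the array, of which 31507 passed the filter on background and were tested. All plants were of the inbred line B73, were grown in nutrient-poor peat in growth chambers and were otherwise fed the same solution with 0.5 mM KH2PO4, with KCl given to low N plants so that potassium was kept level. The lamina of leaf 6 was taken on day 30 after germination from both groups. For part of the results the changes in 2 other experiments were set beside those of low N, and these have arrays and controls of their own: low P leaves (0.1 mM KH2PO4 with 15 mM KNO3, leaf 6, day 30) against control P leaves (0.5 mM KH2PO4), and low T leaves (nights at 4°C, leaf 5, day 20) against control T leaves (nights at 20°C), both on the full nutrient solution and grown in a different chamber from the other plants.

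Nitrate that reaches a maize leaf in the xylem is reduced to nitrite by nitrate reductase in the cytosol and to ammonium by nitrite reductase in the plastid, and the ammonium is built into glutamine and glutamate by glutamine synthetase and glutamate synthase (the GS/GOGAT cycle). Nitrate is also a signal, and the genes of its own reduction are among those long known to be induced by it. Phosphate supply has a signalling chain of its own, in which proteins with an SPX domain read the phosphate state of the cell, the transcription factor PHR1 switches on starvation genes, and high-affinity transporters of the PHT1 family, purple acid phosphatases and sulfolipid synthesis are typical outputs.

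Each array carried RNA of 1 leaf sample labelled with 1 dye, and a level is given throughout as the log2 signal scaled to the 75th percentile of each array, so that 1 unit is a 2-fold difference and 0 is the brightness that 75% of the transcript probes of the array do not exceed. The number of probes well above background was 26928 to 30864 on low N arrays and 25780 to 33163 on control N arrays, and the 75th percentile signal was 832 to 1100 in low N and 779 to 864 in control N. The tissue label fitted its markers: the median signal of the photosystem I list lay at percentile 99.89 of the array in low N and 99.88 in control N, mesophyll markers of the C4 leaf lay at 98.65 in low N and 98.08 in control N, and bundle sheath markers at 99.47 in low N and 99.62 in control N. These are medians, and the lowest of the 5 mesophyll markers lay at 73.09 in low N and 85.72 in control N. Among the 5 was the pyruvate orthophosphate dikinase transcript GRMZM2G097457, which was itself called lower in low N (below). The whole middle part of the lamina was homogenised, so fewer cells of a type and less RNA per cell cannot be told apart in any value below. The first principal component, with 43.7% of the variance, parted the groups (30.8 to 78.3 in low N, -97.5 to -18.4 in control N), and the second, with 24.5%, parted replicates 1 and 2 from replicates 3 and 4 in both groups. By the methods of the study the nitrogen experiment ran in 2 successive sets, and the labels do not assign the arrays to them. The arrays of the comparison lay on 4 slides, and 1 slide held both groups (low N replicates 3 and 4 with control N replicate 3). The difference within that slide is therefore given beside results below.

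**Figure D1:**
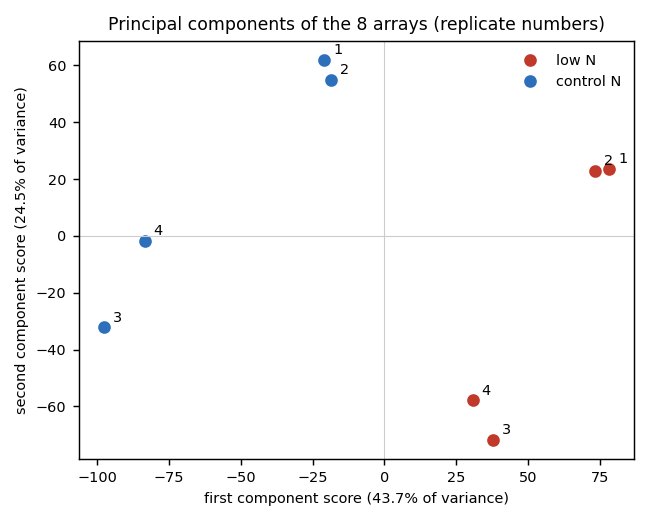
First 2 principal components of the 8 arrays, low N and control N, each point an array with its replicate number and both axes in component scores over the probes tested. Low N arrays lie at 30.8 to 78.3 and control N arrays at -97.5 to -18.4 on the first component, and replicates 1 and 2 of both groups lie above replicates 3 and 4 on the second.

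A transcript was called changed at a difference over 2-fold and an adjusted p under 0.05 (limma, Benjamini-Hochberg over all 31507 probes tested). The 1828 calls were 5.80% of the probes, with 845 higher in low N (2.68%) and 983 lower (3.12%), and the larger changes leaned to the lower side: of 408 calls over 4-fold 164 were higher and 244 lower, and over 8-fold 22 were higher and 98 lower. The levels of the groups did not overlap for 1798 of the 1828, against 21.2% of all probes tested (10.4% with low N higher and 10.8% with low N lower). The median change of all probes was -0.04. With the arrays scaled on the 7 spike-in probes that were well above background on all arrays, this median moved up by 0.57, the calls came to 2864 higher and 297 lower, and on all 10 spike-in probes to 1602 higher and 249 lower; changes below are thus relative to the bulk of the transcripts, and list medians a little under 0 turn positive with this scaling. Where the median or the calls of a list below turned on it, this is stated with most of the lists, for some without the values. The count fell to 1188 without low N replicate 1 and to 1215 without low N replicate 2. Names of transcripts came from the supplementary lists of the study, which give locus and description for 1013 of the 1828 called probes; as those lists hold the transcripts that the study itself called, named transcripts are no random sample of the calls.

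All 6 transcripts for the reduction of nitrate fell in low N leaves, against 5.80% of probes called over the whole array, and their median change was -3.13 (all probes -0.04). Nitrate reductase, which takes the first electron pair to nitrate, is represented by 4 of them. The transcript GRMZM2G142386 had levels of 3.77, 3.72, 4.49 and 4.04 in low N leaves, against 7.10, 7.01, 7.23 and 7.11 in control N leaves, a change of -3.11 ± 0.19 (SE, 4 arrays a group; adjusted p = 0.00016). The levels of GRMZM2G076723 were 3.09, 3.04, 3.89 and 3.51 in low N, against 6.21, 6.36, 6.52 and 6.48 in control N (-3.01 ± 0.21, adjusted p = 0.000226). These were the bright copies of the enzyme on the array, and in both the highest low N leaf stayed more than 2 units under the lowest control N leaf. The dimmer copies fell further: GRMZM2G104898 gave -1.63, -1.72, -1.20 and -1.39 in low N and 2.73, 2.62, 2.72 and 2.47 in control N, a 17.3-fold lower level (-4.12 ± 0.15, adjusted p = 2.28e-05). GRMZM2G428027 gave -2.07, -2.09, -1.38 and -1.57 in low N, against 2.50, 2.30, 2.53 and 2.27 in control N, 18.1-fold lower (-4.18 ± 0.19, adjusted p = 7.02e-05). Low N replicates 3 and 4 were the higher low N leaves for each of the 4 copies, and the probes of such close copies may share signal.

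Ferredoxin-nitrite reductase (GRMZM2G079381), the plastid enzyme of the next step, had levels of 2.32, 2.41, 2.96 and 2.44 in low N leaves, against 4.72, 4.68, 4.51 and 4.55 in control N leaves (-2.08 ± 0.17, adjusted p = 0.000491). Uroporphyrinogen III methyltransferase (GRMZM2G000739), which opens the branch to siroheme, the cofactor of nitrite reductase, had -2.01, -1.81, -1.54 and -1.56 in low N and 1.43, 1.28, 1.34 and 1.64 in control N (-3.15 ± 0.16, adjusted p = 8.09e-05). The cofactor enzyme thus fell 8.89-fold and the reductase that carries the cofactor 4.23-fold. Groups of 4 without overlap give an exact two-sided permutation p of 0.0286, the smallest that 4 against 4 arrays allow, and all 6 transcripts reached it. Of all probes tested 21.2% had groups without overlap, 10.8% with low N lower. The permutation took no account of the split by replicate number. On the slide that held both groups the 6 differences ran from -4.01 to -1.80, and all 6 calls held with the spike-in scalings, where the median of the list was -2.60 (10 spike-ins) and -2.56 (7 spike-ins).

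**Figure D2:**
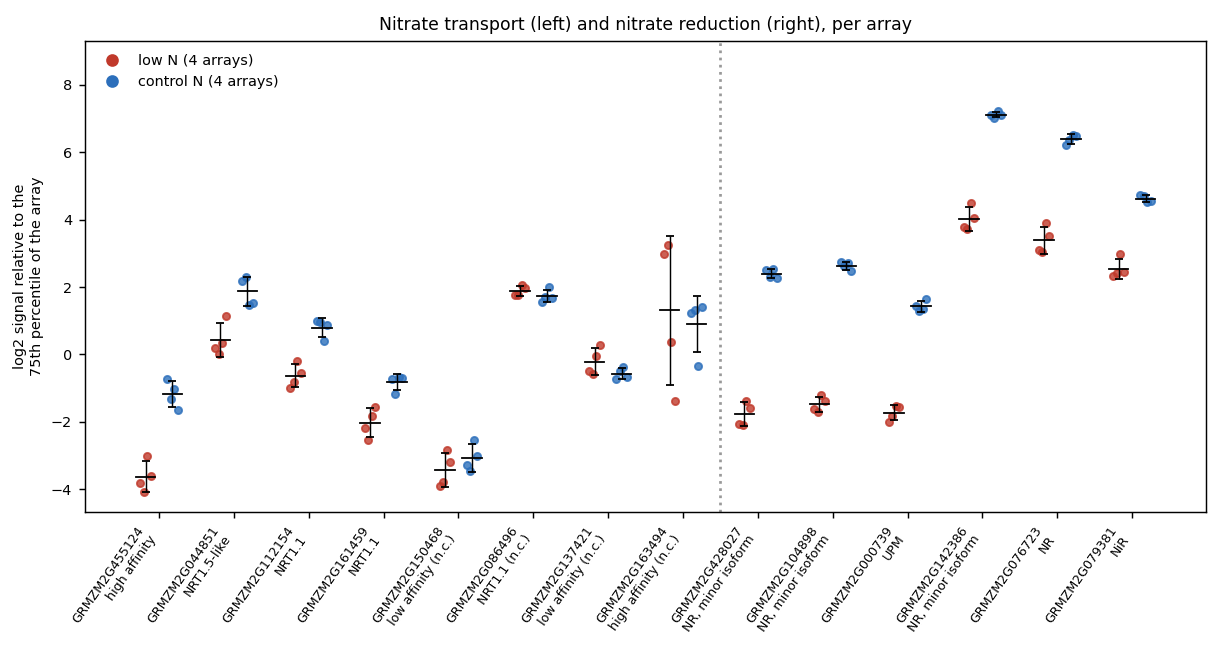
Levels of the 8 nitrate transport transcripts (left) and the 6 nitrate reduction transcripts (right) in each low N leaf (red) and control N leaf (blue), as log2 signal scaled to the 75th percentile of each array, with points for the 4 arrays of a group and black bars for mean and SD; n.c. marks transcripts that were not called. For all 6 reduction transcripts the low N points lie below the control N points, while the transport transcripts are mixed.

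Of the 8 nitrate transporters measured, 4 fell and none was called higher (50.0% called, against 5.80% of all probes), with a median change of -0.78. The high-affinity family member GRMZM2G455124 had -3.81, -4.09, -3.00 and -3.61 in low N leaves, against -0.72, -1.31, -1.04 and -1.63 in control N leaves (-2.45 ± 0.28, adjusted p = 0.00212). The other high-affinity transcript, GRMZM2G163494, showed no such difference: its levels of 2.99, 3.25, 0.37 and -1.37 in low N and 1.23, 1.32, -0.34 and 1.42 in control N overlapped, and the low N leaves alone spanned more than 4 units (0.40 ± 1.00, adjusted p = 0.835). NRT1.1 is in Arabidopsis a dual-affinity transporter that also senses nitrate, and 3 transcripts were listed as its relatives. GRMZM2G112154 fell to -0.99, -0.80, -0.20 and -0.54 in low N, against 0.98, 0.95, 0.39 and 0.87 in control N (-1.43 ± 0.21, adjusted p = 0.00613), and GRMZM2G161459 changed by -1.22 ± 0.23 (adjusted p = 0.0161). GRMZM2G086496 had 1.75 to 2.06 in low N, against 1.57 to 1.99 in control N (0.15 ± 0.14, adjusted p = 0.54). An NRT1.5-like transcript, GRMZM2G044851, whose Arabidopsis relative loads nitrate into the root xylem, had 0.20, 0.03, 0.34 and 1.15 in low N and 2.19, 2.29, 1.47 and 1.52 in control N (-1.44 ± 0.30, adjusted p = 0.0204). The call of GRMZM2G044851 was lost with replicate number as a block (adjusted p = 0.0502), and without low N replicate 1 or 2 or control N replicate 1 or 2 (adjusted p up to 0.0625), and that of GRMZM2G161459 without low N replicate 1 (adjusted p = 0.0528). Only the call of GRMZM2G455124 held with the spike-in scalings, where the list median was -0.25 (10 spike-ins) and -0.21 (7 spike-ins).

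The nitrate reduction transcripts were also lower in low P leaves and partly in low T leaves, and the size was compared across the experiments by interaction contrasts in limma over all 24 arrays. The change in low N was larger than that in low P for the 4 nitrate reductase transcripts, where 19.9% of all probes differed, and larger than that in low T for all 6 transcripts, where 22.5% of all probes differed. GRMZM2G142386 changed by -3.11 in low N, -1.17 in low P and -1.20 in low T, and GRMZM2G104898 by -4.12 in low N, -2.19 in low P and -0.87 in low T (adjusted p = 0.00528 for low N minus low P, 5.62e-05 for low N minus low T). Nitrite reductase changed by -2.08 in low N, -1.67 in low P and -0.53 in low T, and its low N minus low P difference of -0.41 did not pass the test (adjusted p = 0.356). The siroheme enzyme GRMZM2G000739 was the one with the larger fall in low P, -3.96 against -3.15 in low N, again without passing the test (adjusted p = 0.386). Among transporters the low-affinity transcript GRMZM2G150468 parted the 2 deficiencies, with -0.35 in low N and 4.23 in low P (difference -4.59, adjusted p = 0.000752). The low P arrays lay on 1 slide and the control P arrays on another, so slide and group cannot be told apart in the low P values.

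Of the 7 transcripts of the GS/GOGAT cycle, the next step, none passed both limits, where 5.80% of all probes did, and their median change was -0.14 (0.39 with 10 spike-in probes, 0.43 with 7). NADH-dependent glutamate synthase (GRMZM2G085078) had 1.81, 1.65, 1.49 and 1.43 in low N leaves, against 0.95, 0.92, 0.74 and 0.99 in control N leaves, a difference of 0.70 ± 0.13 (adjusted p = 0.0167) under the 2-fold limit. A further glutamate synthase (GRMZM2G036609) had 3.75, 3.95, 3.72 and 3.60 in low N and 4.23, 4.26, 4.43 and 4.31 in control N (-0.55 ± 0.13, adjusted p = 0.0285), so that the 2 forms differed in sign. The 4 cytosolic glutamine synthetases had changes between -0.43 and 0.23, and the chloroplastic one (GRMZM2G098290) had 0.58 (adjusted p = 0.377), none with an adjusted p under 0.05.

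Among the 16 transcripts of aspartate, asparagine and alanine metabolism 3 fell and none was called higher (18.8%, against 5.80% of all probes), with a median of -0.14 that turned positive with the spike-in scalings (0.39 and 0.43). Asparagine synthetase moves amide nitrogen onto aspartate, and of its 6 transcripts 2 were called. GRMZM2G003762, the bright one, had 6.72, 6.82, 7.71 and 8.03 in low N leaves, against 8.36, 8.24, 8.58 and 8.60 in control N leaves (-1.12 ± 0.30, adjusted p = 0.0499). Its low N leaves fell into replicates 1 and 2 and the higher replicates 3 and 4, and the call was lost with quantile normalisation, with slide as a random block and without any 1 array other than low N replicate 4 (adjusted p up to 0.122 without 1 array). GRMZM2G078472 had -5.07, -4.95, -4.35 and -4.71 in low N and -2.78, -3.84, -1.25 and -2.60 in control N (-2.15 ± 0.48, adjusted p = 0.0271). This call was lost without low N replicate 1, 2 or 4 and without control N replicate 1 or 4 (adjusted p up to 0.0765), and the transcript was called in the other direction in low P leaves (3.62, adjusted p = 0.0129, low N minus low P -5.77, adjusted p = 0.00109). Alanine aminotransferase GRMZM2G088064, which passes amino groups from glutamate to pyruvate, had 1.63, 1.63, 1.96 and 1.99 in low N, against 3.04, 3.07, 3.83 and 3.54 in control N (-1.57 ± 0.21, adjusted p = 0.00422). The 2 asparaginases, which release the amide nitrogen again, had changes of 0.31 and 0.33 and were not called. With the spike-in scalings the call of GRMZM2G078472 held, and those of the other 2 did not.

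Genes of the phosphate response moved in low N leaves too. Of 54 members of the 5 phosphate lists 25 fell and 1 rose (48.1% called, against 5.80% of all probes), with a median of -0.77. Relative to the spike-ins the lower calls came to 8 (10 probes) and 9 (7 probes), the higher ones to 1 and 2, and the median to -0.24 and -0.20. In low P leaves 21 of the 25 had a positive change and 16 were called higher, none lower, while in low T leaves all 25 had a negative change and 21 were called lower. The shares of all probes called in low P and in low T are not given here, so these counts have no reference beside them. The low N change differed from the low P change in 34 of the 54 members (19.9% of all probes) and from the low T change in 11 (22.5% of all probes).

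The PHT1 family, which takes phosphate across the plasma membrane with high affinity, had 6 members, and 5 of them fell (median -1.38, on the slide with both groups -1.77). The largest change was that of a PHT1;4-like transcript, GRMZM2G326707, with 0.02, -0.23, -0.83 and -1.09 in low N leaves, against 1.40, 1.31, 2.10 and 2.02 in control N leaves (-2.24 ± 0.30, adjusted p = 0.00405). PHT1;3-like GRMZM2G139639 had -0.82, -1.03, -0.81 and -0.71 in low N and 0.53, 0.66, 1.03 and 1.09 in control N (-1.67 ± 0.17, adjusted p = 0.00122). The same transcripts changed by 1.37 and 1.51 in low P leaves, and by -3.03 and -2.17 in low T leaves. The other 3 called members, GRMZM2G154090, GRMZM2G075870 and GRMZM2G112377, changed by -1.35, -1.41 and -1.36, and PHT1;5-like GRMZM2G045473 by -0.43, which was not called. All 6 had a low N change under the low P change by the interaction contrast (adjusted p between 9.14e-06 and 0.0109). None of the 10 members of PHT2 to PHT4, which serve plastids, mitochondria and the Golgi, was called, where 5.80% of all probes were, and their median was 0.24. Scaled on spike-ins their median was 0.77 (10 probes) and 0.81 (7 probes), with 1 member called higher on 7 probes. The difference between the families was not tested. The traffic facilitator PHF (GRMZM2G158489), which in Arabidopsis lets PHT1 leave the endoplasmic reticulum, had -0.25, -0.41, -0.65 and -0.34 in low N and 0.53, 0.59, 0.58 and 1.25 in control N (-1.15 ± 0.19, adjusted p = 0.00969), and without control N replicate 4 it fell short of the 2-fold limit. Relative to the spike-ins the PHT1 median stayed negative (-0.85 with 10 probes, -0.81 with 7), but none and 1 of its 5 calls held.

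Proteins with an SPX domain bind inositol pyrophosphates and keep PHR1 in check when phosphate is ample. Of 10 transcripts 7 fell and 1 rose (80.0% called, against 5.80% of all probes), with a median of -1.91. SPX3-like GRMZM2G065989 had -0.96, -1.29, -1.13 and -1.49 in low N leaves, against 2.91, 3.36, 2.67 and 3.66 in control N leaves, 20.6-fold lower (-4.37 ± 0.23, adjusted p = 0.000106). SPX1-like GRMZM2G171423 had 1.55, 1.37, 1.74 and 1.69 in low N and 3.66, 4.04, 3.92 and 4.61 in control N (-2.47 ± 0.21, adjusted p = 0.00066). In both the groups lay far apart, and the same transcripts rose in low P leaves (1.15 and 1.01) and fell in low T leaves (-5.13 and -4.23). A second SPX3-like gene, GRMZM2G370780, fell at both of its probes (-2.88 ± 0.22, adjusted p = 0.000365, and -3.47 ± 0.17, adjusted p = 7.98e-05). SPX2-like GRMZM2G035579 was not well above background on any low N array and was at least 4.63-fold lower there. Its adjusted p of 0.000205 belongs to the fit on the measured signals, and this bound was not tested. SPX4-like GRMZM2G122108 (-1.23), the PHO1 relative GRMZM2G335989 (-1.77) and an SPX-MFS protein of the vacuolar membrane type, GRMZM2G166976 (-2.06), completed the lower calls, the last being lost without low N replicate 3 and without control N replicate 1 or 2 (adjusted p up to 0.0578). The member that rose was another SPX-MFS transcript, GRMZM2G086430, with 0.37, 0.46, 0.99 and 1.09 in low N, against -2.79, -2.70, -1.89 and -3.76 in control N, 11.4-fold higher (3.52 ± 0.37, adjusted p = 0.00169), and its change in low P leaves was -0.79 (low N minus low P 4.31, adjusted p = 0.00069). With both spike-in scalings 4 of the 7 lower calls and the higher one held, and the list median was -1.38 (10 probes) and -1.34 (7 probes).

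**Figure D3:**
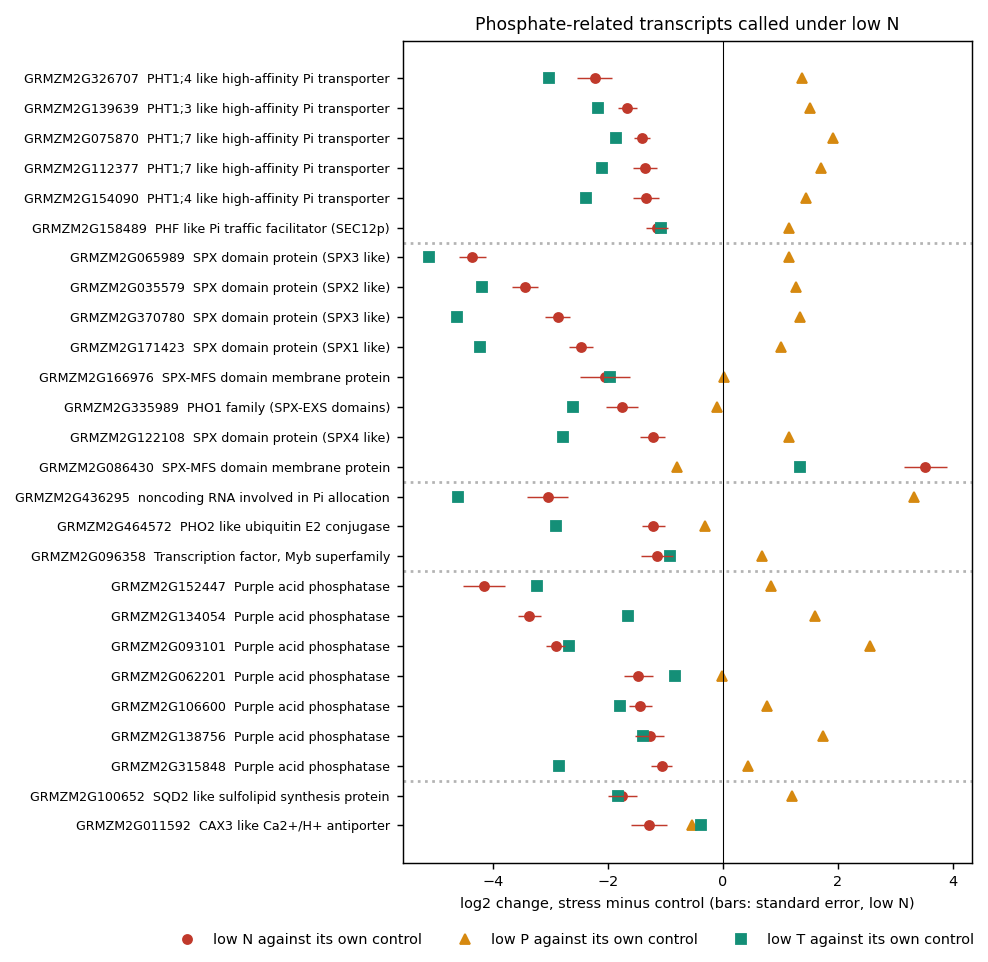
Log2 changes of the 26 called members of the phosphate lists in low N (circles, with bars for the standard error), low P (triangles) and low T leaves (squares), each against its own controls, 1 row a transcript. All but 1 of the circles and squares lie left of 0 and most triangles right of it, and the exception, SPX-MFS transcript GRMZM2G086430, lies at 3.52 in low N.

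Among regulators of the phosphate response 3 of 8 were called, all lower (37.5%, against 5.80% of all probes called). The noncoding RNA GRMZM2G436295, of the kind that binds the microRNA against PHO2 in Arabidopsis, had -1.04, -1.22, -2.21 and -2.16 in low N leaves, against 1.40, 1.90, 0.66 and 1.63 in control N leaves (-3.06 ± 0.36, adjusted p = 0.00246), and changed by 3.33 in low P leaves, so that its low N minus low P difference of -6.38 (adjusted p = 0.000225) was among the widest of the phosphate lists. PHO2 itself, a ubiquitin conjugase that in Arabidopsis removes phosphate transporters, had a like (GRMZM2G464572) at 2.35, 2.30, 2.14 and 2.72 in low N and 3.24, 3.45, 3.94 and 3.74 in control N (-1.21 ± 0.20, adjusted p = 0.00846). A Myb factor, GRMZM2G096358, changed by -1.15 ± 0.28 (adjusted p = 0.0339), a call lost without low N replicate 1 or 2 and without control N replicate 2, 3 or 4 (adjusted p up to 0.0927). PHR1-like GRMZM2G006477 had a change of -0.40 and was not called. With both spike-in scalings the call of GRMZM2G436295 alone held among the 3, and the list median of -0.25 turned to 0.28 (10 probes) and 0.32 (7 probes).

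Purple acid phosphatases, which free phosphate from esters, fell in 7 of 12 cases (58.3%, against 5.80% of all probes called, median -1.18). GRMZM2G152447 had 3.04, 2.37, 1.42 and 1.46 in low N leaves, against a mean of 6.23 ± 0.29 in control N leaves (SD, n = 4), 17.8-fold lower (-4.16 ± 0.37, adjusted p = 0.000718). GRMZM2G134054 had -2.08, -2.26, -2.79 and -2.57 in low N and 0.81, 0.78, 0.86 and 1.34 in control N (-3.37 ± 0.20, adjusted p = 0.00016). GRMZM2G093101 had -3.21, -3.36, -3.64 and -3.53 in low N and -0.66, -0.68, -0.55 and -0.20 in control N (-2.92 ± 0.16, adjusted p = 0.00012). These 3 held their calls with the spike-in scalings, where the list median was -0.64 (10 probes) and -0.60 (7 probes), and the other 4 (GRMZM2G106600, GRMZM2G062201, GRMZM2G138756 and GRMZM2G315848, -1.48 to -1.07) did not. The call of GRMZM2G138756 was lost without low N replicate 1 or control N replicate 4 (adjusted p up to 0.0542), and GRMZM2G315848 fell short of the 2-fold limit without control N replicate 4. All 12 members had a low N change under the low P change. The 5 that were not called in low N changed by 2.44 to 6.96 in low P, with GRMZM2G434170 at 0.26 in low N and 6.96 in low P (difference -6.71, adjusted p = 1.64e-05).

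Of 7 other phosphate-related transcripts, SQD2-like GRMZM2G100652, which makes the sulfolipid that can stand in for phospholipid, had -0.23, -0.16, -1.27 and -0.84 in low N leaves and 1.21, 1.14, 0.92 and 1.25 in control N leaves (-1.76 ± 0.25, adjusted p = 0.00532), with 1.20 in low P leaves. A sulfolipid gene outside the list, GRMZM2G477503, was among the widest falls on the array, with 0.04, -0.52, -1.61 and -1.02 in low N, against 3.77, 3.89, 3.49 and 4.16 in control N (-4.61 ± 0.34, adjusted p = 0.000319). CAX3-like antiporter GRMZM2G011592 changed by -1.29 ± 0.31 (adjusted p = 0.0342), and its call was lost without low N replicate 1 or 2 or without any 1 control N array (adjusted p up to 0.0888). GRMZM2G100652 and GRMZM2G011592 were the 2 called members of the list (28.6%, against 5.80% of all probes). Both calls were lost with both spike-in scalings, and the list median of -0.58 came to -0.04 (10 probes) and -0.002 (7 probes).

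Carbon metabolism showed smaller shifts. None of the 26 photosystem transcripts was called, where 5.80% of all probes were. Their median differed in sign between the pairs of replicates: -0.55 in replicates 1 and 2 and 0.18 in replicates 3 and 4. The photosystem medians were also positive with quantile normalisation (0.13) and with the spike-in scalings. None of 27 Calvin cycle transcripts was called (median -0.28), but 1 was called lower with replicate number as a block, 1 with normexp background correction and 2 with slide as a random block. Of 18 transcripts of the C4 shuttle 3 fell (16.7%, against 5.80% of all probes called, median -0.44). A transcript of pyruvate orthophosphate dikinase, GRMZM2G097457, had 0.34, 0.50, 0.08 and 1.00 in low N leaves, against 2.00, 1.76, 1.63 and 1.40 in control N leaves (-1.22 ± 0.22, adjusted p = 0.0136). The enzyme remakes the CO2 acceptor in the mesophyll, but whether this copy serves the C4 cycle was not tested. The phosphoenolpyruvate translocator GRMZM2G066413 had 1.14, 1.16, 1.28 and 0.90 in low N and 2.39, 2.23, 2.68 and 2.56 in control N (-1.35 ± 0.15, adjusted p = 0.00197). Chloroplast NAD-malate dehydrogenase GRMZM2G141289 changed by -1.05 ± 0.14 (adjusted p = 0.00453) and fell under the 2-fold limit without control N replicate 1. In photorespiration catalase GRMZM2G090568 was the 1 called member of 20 (5.00%, near the share of all probes), with a change of -1.16 ± 0.27 (adjusted p = 0.0287). That call was lost without low N replicate 1, 3 or 4 or control N replicate 1, 2 or 4 (adjusted p up to 0.0733). The medians of the C4, Calvin, photorespiration, glycolysis, citrate cycle, pentose phosphate, sucrose and starch lists all turned positive with the spike-in scalings, and none of the calls of this paragraph held there.

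In glycolysis, the citrate cycle and the oxidative pentose phosphate pathway the shares called were 7.50%, 4.00% and 8.70%, near the 5.80% of all probes. In glycolysis 3 of 40 fell, namely the enolases GRMZM2G064302 (-1.12 ± 0.19, adjusted p = 0.00937) and GRMZM2G446253 (-1.20 ± 0.17, adjusted p = 0.00547) and a phosphoglycerate mutase, GRMZM2G021605 (-1.58 ± 0.24, adjusted p = 0.00641). A subunit of pyruvate dehydrogenase, the entry to the citrate cycle, GRMZM2G302832, had -1.36, -1.29, -1.24 and -1.29 in low N leaves, against 0.81, 0.41, 1.11 and 0.95 in control N leaves (-2.11 ± 0.17, adjusted p = 0.000454) and was the 1 of 25 called in its list. The oxidative pentose phosphate pathway, a source of reductant for nitrite reduction in tissue without light, had 2 of 23 called. Its cytosolic 6-phosphogluconate dehydrogenase GRMZM2G440208 had 0.96, 0.97, 1.24 and 1.21 in low N and 3.20, 2.72, 3.58 and 3.39 in control N (-2.13 ± 0.20, adjusted p = 0.000934), and glucose-6-phosphate dehydrogenase GRMZM2G177077 had -1.77, -1.82, -2.13 and -2.29 in low N and -0.02, -0.23, -0.55 and -0.53 in control N (-1.67 ± 0.18, adjusted p = 0.00189). Pyruvate dehydrogenase and 6-phosphogluconate dehydrogenase kept their calls with the spike-in scalings and the other 4 did not.

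Sucrose synthesis had 3 of 12 called, all lower, and none of the 5 sucrose transporters was called. Sucrose phosphate synthase, which sets the rate of sucrose formation, fell in 2 copies: GRMZM2G013166 had 5.07, 4.99, 4.55 and 5.05 in low N leaves, against 6.87, 6.85, 6.57 and 6.90 in control N leaves (-1.88 ± 0.16, adjusted p = 0.000665), and GRMZM2G140107 had 1.74, 1.67, 0.73 and 1.46 in low N and 3.26, 3.30, 3.22 and 3.49 in control N (-1.91 ± 0.23, adjusted p = 0.00264). Replicate 3 was the lowest leaf of its group for both copies in low N, and in control N as well. UDP-glucose pyrophosphorylase AC197705.4_FG011, which feeds it, had 2.37, 2.08, 1.09 and 0.57 in low N and 3.62, 3.75, 3.20 and 3.66 in control N (-2.03 ± 0.38, adjusted p = 0.0153). Sucrose synthase 2 (GRMZM2G152908) changed by -1.84 ± 0.45 (adjusted p = 0.0354), a call lost with replicate number as a block (adjusted p = 0.0726), and without low N replicate 1 or 2 or any 1 control N array (adjusted p up to 0.0826). In starch metabolism none of 16 transcripts of synthesis was called, and 2 of 12 of breakdown were, both beta-amylases: GRMZM2G082034 had -0.33, -0.45, 0.35 and 0.61 in low N and 1.44, 1.38, 2.09 and 2.00 in control N (-1.69 ± 0.29, adjusted p = 0.0102), and GRMZM2G112296, at the edge of the 2-fold limit, had an adjusted p of 0.0255 and lost its call without low N replicate 1, 2 or 4 or control N replicate 1 or 2 (adjusted p up to 0.0729). The calls of GRMZM2G013166 and GRMZM2G082034 held on 7 spike-in probes and none of the 6 on all 10.

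In 5 further lists of amino acid metabolism 14.3% to 16.7% of the members were called (5.80% of all probes), and the list medians lay between -0.08 and 0.13; with the spike-in scalings all 5 were positive (0.45 to 0.71). Serine O-acetyltransferase makes the acceptor for sulfide on the way to cysteine, and both its called transcripts fell: GRMZM2G013430 had -1.01, -1.05, -1.08 and -1.48 in low N leaves, against 2.46, 2.01, 2.23 and 2.11 in control N leaves, 10.3-fold lower (-3.36 ± 0.16, adjusted p = 7.98e-05), and GRMZM2G069203 had 4.55, 4.62, 5.20 and 4.98 in low N and 5.87, 6.08, 5.86 and 6.47 in control N (-1.23 ± 0.21, adjusted p = 0.0095). Threonine synthase GRMZM2G050570 had 1.02, 1.10, 1.20 and 1.25 in low N and 3.04, 2.75, 2.83 and 2.91 in control N (-1.74 ± 0.12, adjusted p = 0.000272). Homoserine dehydrogenase GRMZM2G104546, upstream of it, changed by -1.91 ± 0.27 (adjusted p = 0.00496). In proline synthesis pyrroline-5-carboxylate synthase GRMZM2G028535 had -3.48, -3.51, -3.35 and -3.48 in low N, against -2.02, -2.41, -2.15 and -2.44 in control N (-1.20 ± 0.14, adjusted p = 0.00231).

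In the aromatic pathway 5 of 39 fell and 1 rose (15.4% called, against 5.80% of all probes). Both tryptophan synthase alpha chain transcripts were lower, with the split by replicate seen in asparagine synthetase: GRMZM2G046163 had 4.56, 4.49, 5.39 and 5.95 in low N leaves, against 6.80, 6.65, 6.65 and 7.03 in control N leaves (-1.68 ± 0.32, adjusted p = 0.0162), and GRMZM2G015892 changed by -1.53 ± 0.36 (adjusted p = 0.0319). Anthranilate synthase component II (GRMZM2G106950), at the branch to tryptophan, had -2.48, -2.75, -2.05 and -2.06 in low N and -0.14, 0.36, -0.92 and -0.85 in control N (-1.95 ± 0.31, adjusted p = 0.00844). The shikimate kinases GRMZM2G070218 and GRMZM2G161566 both changed by -1.06 (adjusted p = 0.0326 and 0.0367). The transcript that rose was that of the entry enzyme, 3-deoxy-7-phosphoheptulonate synthase GRMZM2G396212, with 1.10, 1.02, 0.76 and 1.00 in low N and 0.11, 0.28, -0.33 and -0.82 in control N (1.16 ± 0.24, adjusted p = 0.0207). Other rises were phosphoglycerate dehydrogenase GRMZM2G098423 in serine synthesis (1.68 ± 0.42, adjusted p = 0.0373) and dihydroxy-acid dehydratase GRMZM2G014069 (1.19 ± 0.25, adjusted p = 0.0237). Branched-chain aminotransferase GRMZM2G087103 (-1.01) and acetylornithine aminotransferase GRMZM2G119583 (-1.01) were lower calls at the edge of the 2-fold limit. Leaving out single arrays ended 8 of these calls (each array of the comparison ended at least 1): GRMZM2G015892, GRMZM2G070218 and GRMZM2G161566 without low N replicate 1 or 2 or any 1 control N array, GRMZM2G396212 without low N replicate 1 or 2 or control N replicate 4, GRMZM2G098423 without low N replicate 1, 2 or 3 or control N replicate 2, 3 or 4, GRMZM2G014069 without low N replicate 1 or 2 or control N replicate 2 or 3, GRMZM2G087103 without any 1 array but low N replicate 3, and GRMZM2G119583 without low N replicate 3 or 4 or control N replicate 1 or 2, with adjusted p of up to 0.101. With both spike-in scalings the 3 rises of these lists and the falls of GRMZM2G013430 and GRMZM2G106950 kept their calls, and the fall of GRMZM2G050570 and that of GRMZM2G046163 did with 7 spike-in probes.

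**Figure D4:**
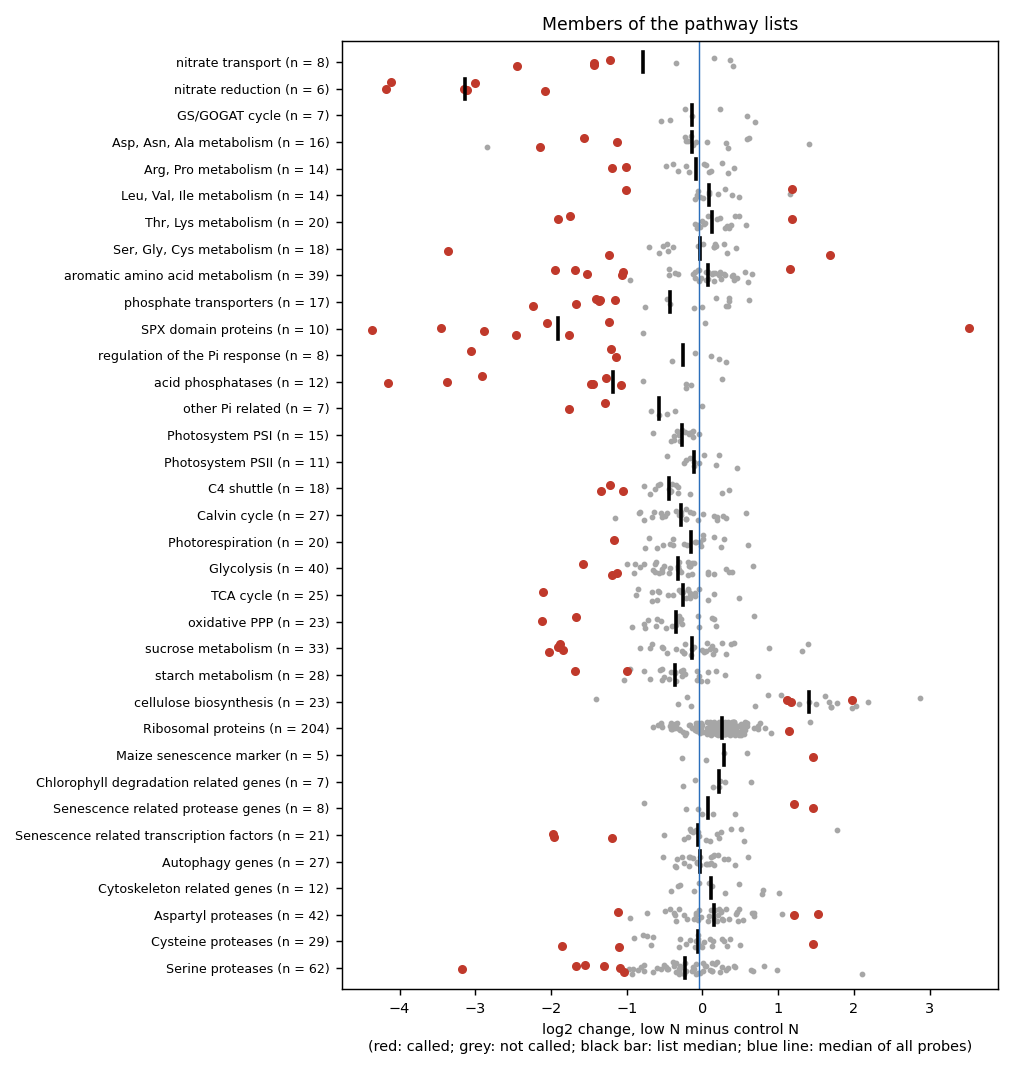
Log2 change, low N minus control N, of every tested member of each pathway list, 1 row a list with its number of members, red points for called and grey points for other members, a black bar for the list median and a blue line for the median of all probes (-0.04). The nitrate reduction list has the lowest median (-3.13) with all 6 points red, and cellulose biosynthesis has the highest (1.41).

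Cellulose biosynthesis had the highest list median. Of its 23 transcripts 19 had a positive change (46.2% of all probes), the median was 1.41 (1.73 on the slide with both groups), and 3 were called higher and none lower. Cellulose synthase 6 (GRMZM2G113137) had 1.36, 1.39, 1.41 and 1.20 in low N leaves, against 0.45, 0.38, 0.01 and -0.16 in control N leaves (1.17 ± 0.17, adjusted p = 0.00508). GRMZM2G113432, described as similar to cellulose synthase, had 1.22, 0.65, 0.56 and 0.85 in low N and -0.52, -0.61, -1.70 and -1.77 in control N (1.97 ± 0.33, adjusted p = 0.00966). GRMZM2G027794 had 1.73, 1.59, 1.26 and 1.29 in low N and 0.86, 0.77, -0.14 and -0.09 in control N (1.12 ± 0.27, adjusted p = 0.0334), a call lost without any 1 low N array and without control N replicate 3 or 4 (adjusted p up to 0.0928). In these the spread lay in control N, where replicates 3 and 4 were the lower leaves. With replicate number as a block 13 members were called higher and 1 lower, with slide as a random block 15 higher and 1 lower, and relative to the spike-ins 5 (10 probes) and 13 (7 probes) higher and none lower. The brightest member, GRMZM2G014558, had the most negative change of the list, with a mean of 5.83 in low N and 7.24 in control N, and was not called (adjusted p = 0.113). The summed signal of the list, on the log2 scale of the levels, was 7.08 to 7.50 in low N and 7.27 to 8.17 in control N, where the groups overlapped and the lean was to lower values in low N, unlike that of the median. The cytoskeleton list had 0 of 12 members called and a median of 0.11, and its summed signal, on the same log2 scale, was 6.25 to 6.48 in low N and 5.88 to 6.14 in control N. Scaled on 7 spike-in probes its median was 0.68 and 3 members were called higher. The part of the cytoskeleton list in the cellulose values was not tested.

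The 204 ribosomal proteins had a median change of 0.26, with 165 positive (46.2% of all probes), and 1 was called higher (0.490%, against 5.80% of all probes called). The called member, GRMZM2G100349 (1.14 ± 0.26, adjusted p = 0.0305), lost its call with replicate number as a block (adjusted p = 0.0646), and without low N replicate 1, 3 or 4 or control N replicate 1, 3 or 4 (adjusted p up to 0.0775). This median was 0.52 in replicates 1 and 2 and -0.02 in replicates 3 and 4, so that the direction of the list rests on replicates 1 and 2.

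Of the lists linked with leaf senescence, 20.0% of the markers (1 of 5), 25% of the proteases (2 of 8) and 14.3% of the transcription factors (3 of 21) were called, against 5.80% of all probes. None of 27 autophagy transcripts and none of 7 transcripts of chlorophyll degradation was called, with medians of -0.03 and 0.21 (0.50 and 0.74 with 10 spike-in probes). The summed signal of the chlorophyll degradation list was 3.99 to 4.24 in low N and 3.97 to 4.26 in control N. The marker called was the cysteine protease SAG12 (GRMZM2G010435), which is also 1 of the 2 called proteases and in Arabidopsis comes on late in ageing leaves. Its levels were -3.82, -4.60, -4.77 and -4.55 in low N leaves, against -5.48, -5.33, -6.33 and -6.47 in control N leaves (1.47 ± 0.32, adjusted p = 0.0251). This transcript was dim in both groups, and the call was lost without low N replicate 1 or 2 or control N replicate 3 or 4 (adjusted p up to 0.0632). The other called protease, aspartyl protease GRMZM2G112337, by contrast bright, had 4.29, 4.13, 4.64 and 4.68 in low N and 3.67, 3.50, 2.87 and 2.86 in control N (1.21 ± 0.24, adjusted p = 0.017). The 3 called transcription factors were all lower: GRMZM2G153754 (-1.96 ± 0.33, adjusted p = 0.0103), the HAP5 subunit GRMZM2G089812 (-1.98 ± 0.49, adjusted p = 0.0372) and the ARR10 response regulator GRMZM2G129954 (-1.19 ± 0.29, adjusted p = 0.0375). The call of GRMZM2G089812 was lost with replicate number as a block (adjusted p = 0.0649) and without any 1 array but low N replicate 4, and that of GRMZM2G129954 without any 1 low N array or control N replicate 1 or 2 (adjusted p up to 0.0999 and 0.0828). With the spike-in scalings the median of this list turned from -0.06 to 0.47 (10 probes) and 0.51 (7 probes), and of the 3 calls GRMZM2G153754 held with both, GRMZM2G089812 with 7 probes and GRMZM2G129954 with neither.

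Of 62 serine proteases 6 fell and none was called higher (9.68%, not far from the 5.80% of all probes called). Their median was -0.24, or 0.30 and 0.34 with the spike-in scalings. The serine carboxypeptidase GRMZM2G373607 had -8.15, -8.09, -6.71 and -7.71 in low N leaves, against -4.85, -4.79, -4.32 and -4.02 in control N leaves (-3.17 ± 0.34, adjusted p = 0.00186). A second carboxypeptidase, GRMZM2G118241, changed by -1.67 ± 0.31 (adjusted p = 0.014), and 4 subtilisin-like proteases changed by -1.55 to -1.03. Of the 4, only GRMZM2G345622 kept its call without each array in turn. GRMZM2G013986 lost it without low N replicate 1 or 2 or control N replicate 1, 3 or 4, GRMZM2G057159 without low N replicate 2, 3 or 4 or control N replicate 1, 2 or 3, and GRMZM2G076417 without low N replicate 1, 2 or 3 or control N replicate 1, 2 or 3 (adjusted p up to 0.0769). GRMZM2G076417 also lost it with replicate number as a block (adjusted p = 0.0672). Cysteine proteases had 2 of 29 lower, GRMZM2G070011 (-1.85 ± 0.29, adjusted p = 0.00785) and GRMZM2G043980 (-1.10 ± 0.29, adjusted p = 0.0441, lost without any 1 array, adjusted p up to 0.102), beside the rise of SAG12. Of 42 aspartyl proteases 2 rose, GRMZM2G112337 and GRMZM2G079490 (1.52 ± 0.25, adjusted p = 0.00857), and GRMZM2G018044 fell (-1.12 ± 0.25, adjusted p = 0.0256, lost without low N replicate 1 or 2 or control N replicate 1 or 3, adjusted p up to 0.0746). With the spike-in scalings the calls of GRMZM2G373607, GRMZM2G070011 and the rises held, and those of the other 5 serine proteases, GRMZM2G043980 and GRMZM2G018044 did not.

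Over the whole array the transcripts with the largest changes were taken among the 782 called and named probes well above background on all 8 arrays and without overlap. The widest fall was that of a starch-binding protein, GRMZM2G018820, with -0.21, -1.70, -2.45 and -1.35 in low N leaves, against 5.23, 5.32, 5.48 and 5.84 in control N leaves, 119-fold lower (-6.90 ± 0.42, adjusted p = 0.000168). A transcript of the phosphatidylethanolamine-binding family, GRMZM2G179264, described as a relative of the flowering signal FT, had -5.36, -5.48, -4.26 and -3.26 in low N and -0.46, -0.88, 0.86 and 0.02 in control N (-4.47 ± 0.55, adjusted p = 0.00308). These were followed by the clathrin assembly protein GRMZM2G020957 (-4.43 ± 0.38, adjusted p = 0.000665). A pair of haloacid dehalogenase-like hydrolases, a superfamily that holds many phosphatases, stood in the same rank. GRMZM2G015908 had -2.23, -2.40, -2.21 and -2.38 in low N, against 1.63, 1.87, 1.60 and 1.85 in control N (-4.05 ± 0.13, adjusted p = 1.51e-05), and GRMZM2G312510 had 3.99, 3.43, 3.86 and 3.68 in low N and 7.35, 7.31, 7.52 and 7.68 in control N (-3.72 ± 0.16, adjusted p = 5.66e-05). GRMZM2G083655, described as SPX domain gene 1, changed by -4.00 ± 0.31 (adjusted p = 0.00041). A phosphodiesterase of the phospholipase C type, GRMZM2G064962, changed by -3.65 ± 0.31 (adjusted p = 0.000665).

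The methyltransferase GRMZM2G126772 had -2.34, -2.03, -0.49 and 0.52 in low N leaves, against 2.95, 2.69, 2.35 and 2.61 in control N leaves (-3.74 ± 0.59, adjusted p = 0.00753), and GRMZM2G303419, described as salicylic acid carboxyl methyltransferase, had -2.19, -2.22, -1.06 and 0.39 in low N and 2.48, 2.61, 2.04 and 1.99 in control N (-3.55 ± 0.55, adjusted p = 0.00702). Both followed the split of low N leaves, with replicate 4 the highest. Within the slide that held both groups their differences were -2.34 and -2.38.

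Among the 15 largest rises were 3 transcripts described as transporters. The amino acid transporter GRMZM2G108597 had 0.60, 0.54, 0.72 and 0.50 in low N leaves, against -2.89, -2.93, -1.71 and -1.92 in control N leaves, 7.74-fold higher (2.95 ± 0.29, adjusted p = 0.00122). The oligopeptide transporter GRMZM2G071759 had 5.32, 5.45, 4.57 and 4.09 in low N and 2.56, 2.96, 0.39 and 1.10 in control N (3.10 ± 0.59, adjusted p = 0.0155). GRMZM2G362848, of the uridine, thiamine and allantoin permease family, had 1.11, 1.10, 0.88 and 0.40 in low N and -1.07, -1.27, -2.74 and -2.52 in control N (2.77 ± 0.40, adjusted p = 0.0053). The 3 families are known for the transport of amino acids, of small peptides and of nucleobases or allantoin. A peroxidase, GRMZM2G095404 (3.58 ± 0.29, adjusted p = 0.000566), a lipid-transfer protein, GRMZM2G046750 (3.52 ± 0.20, adjusted p = 0.00013), an invertase or pectin methylesterase inhibitor, GRMZM2G321870 (2.67 ± 0.34, adjusted p = 0.00326), and UDP-rhamnose synthase GRMZM2G031311 (3.07 ± 0.63, adjusted p = 0.0202) were also higher. The last call was lost without low N replicate 1 or 2 or control N replicate 4 (adjusted p up to 0.0592). Further rises were an aldo/keto reductase, GRMZM2G087507 (2.66), a transcript described as myosin heavy chain, GRMZM2G147390 (2.49), a pentatricopeptide repeat protein, GRMZM2G092739 (2.48), GRMZM2G181135 with a von Willebrand factor domain (2.88), and GRMZM2G067156, described as a transcription coactivator (1.84).

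**Figure D5:**
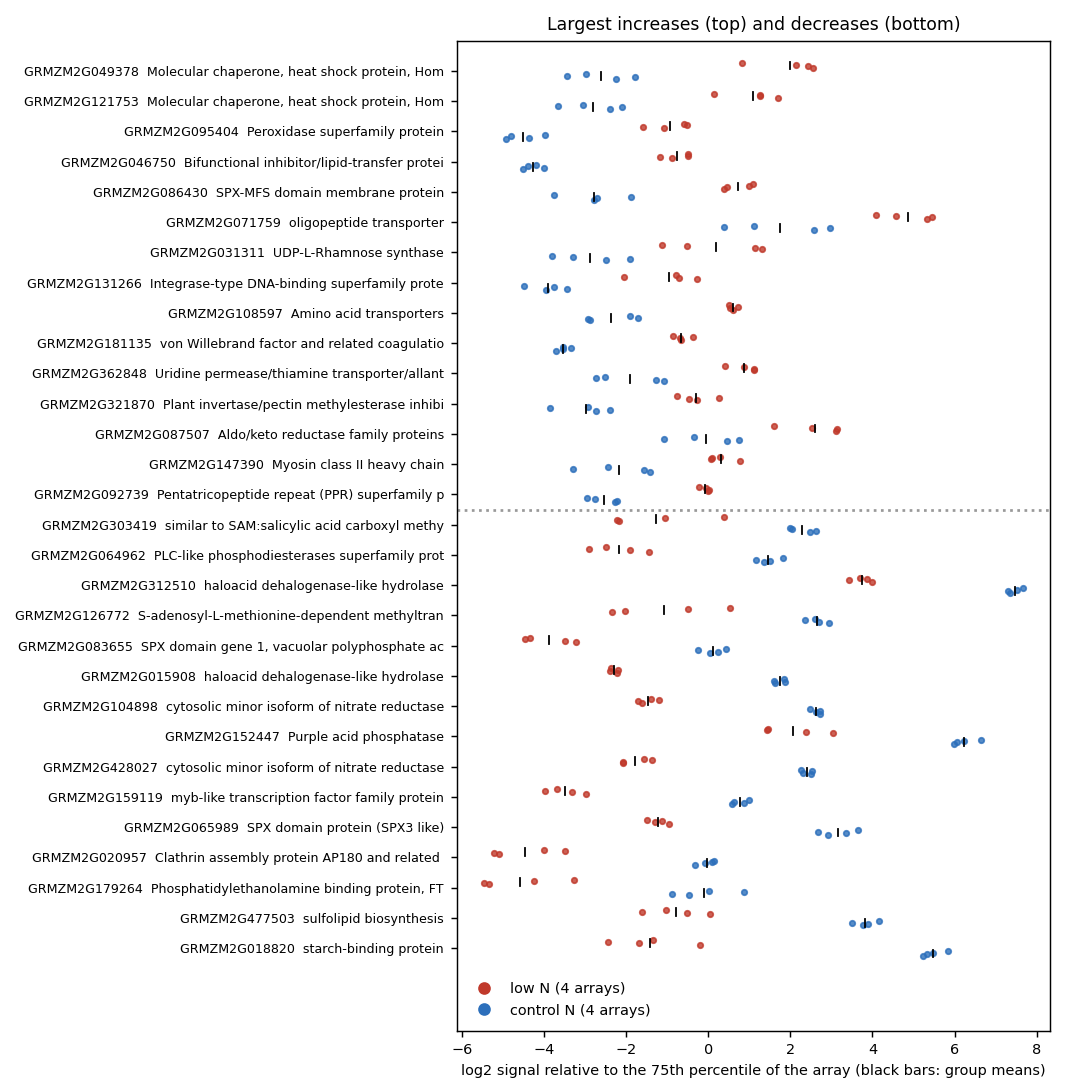
Levels in each low N leaf (red) and control N leaf (blue) of the transcripts with the 15 largest rises (top) and 15 largest falls (bottom) among the called and named probes, as log2 signal scaled to the 75th percentile of each array, with a black bar for the mean of 4 arrays. The groups do not overlap in any row, as the choice of transcripts required, and the starch-binding protein GRMZM2G018820 lies at -2.45 to -0.21 in low N and at 5.23 to 5.84 in control N.

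Some transcripts crossed the background. Of the calls 32 were not well above background on any low N array and well above on all control N arrays, and 3 the reverse; for these only the least possible change can be given. The brighter group's mean was divided by a floor for the dimmer group, which on each array was the dimmest signal still well above background, or the transcript's own signal where that was higher. An adjusted p given beside a bound belongs to the fit on the measured signals, and the bound itself was not tested. The protein kinase GRMZM2G075286 was at least 28.8-fold lower in low N (adjusted p = 0.000665), and a LOB domain protein, GRMZM2G044902, a family of boundary regulators, at least 23.0-fold lower (adjusted p = 0.00179). A chitinase, GRMZM2G430942, was at least 5.66-fold lower and a receptor-like kinase, GRMZM2G041544, at least 4.52-fold lower. In the other direction GRMZM2G019586, described as microtubule-associated, was at least 4.29-fold higher in low N, a small heat shock protein, GRMZM2G135960, at least 3.02-fold and a DNA repair factor, GRMZM2G022945, at least 2.94-fold. These 3 higher calls were lost with normexp background correction.

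Among transcription factors, those with the largest rises were a pair of homeodomain-like transcripts, GRMZM2G049378, with 2.55, 2.44, 2.14 and 0.82 in low N leaves and -2.26, -1.78, -3.44 and -2.98 in control N leaves (4.60 ± 0.47, adjusted p = 0.00146), and GRMZM2G121753, with 1.71, 1.25, 1.26 and 0.14 in low N and -2.39, -2.09, -3.67 and -3.05 in control N (3.89 ± 0.42, adjusted p = 0.00187). Both carry the same description, which also names heat shock proteins, and in both replicate 4 was the lowest low N leaf. The low N change of GRMZM2G049378 was larger than its change in low P (0.73, difference 3.87, adjusted p = 0.00766) and in low T (1.23, difference 3.36, adjusted p = 0.0163). An AP2-type factor, GRMZM2G131266, with an integrase-type DNA-binding domain (2.95 ± 0.39, adjusted p = 0.00385), the Myb factors GRMZM2G403620 (1.99 ± 0.39, adjusted p = 0.0168) and GRMZM2G017520 (1.59 ± 0.30, adjusted p = 0.0146) and the HAP2 subunit GRMZM2G033245 (1.86 ± 0.22, adjusted p = 0.00246) were higher too. On the lower side, myb-like GRMZM2G159119 had -2.98, -3.32, -3.97 and -3.69 in low N, against 0.57, 0.87, 0.62 and 0.99 in control N (-4.25 ± 0.23, adjusted p = 0.000106). Homeodomain-like AC234520.1_FG003 had -1.86, -2.04, -2.39 and -1.87 in low N and 0.89, 0.76, 0.75 and 0.64 in control N (-2.80 ± 0.15, adjusted p = 0.000119). A CCCH zinc finger protein, GRMZM2G148090, a GRAS factor, GRMZM2G055263, a TCP factor, GRMZM2G062711, and a NAM factor, GRMZM2G100593, changed by -2.32 to -1.95. With the spike-in scalings the call of GRMZM2G062711 was lost on both sets of probes and that of GRMZM2G100593 on all 10. The call of GRMZM2G403620 was lost without low N replicate 1 or 2 (adjusted p up to 0.0536) and that of GRMZM2G100593 without low N replicate 2 (adjusted p = 0.0554).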

How the data were processed

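Leaf RNA was hybridised to a custom 1-colour Agilent maize array with 41780 transcript probes, with 4 biological replicates a group. The deposited scanner files hold spot intensity values, which the authors extracted with Agilent Feature Extraction (version 11.7.1 per the labels). The deposited series table holds log2 values that the authors scaled to the 75th percentile in GeneSpring and corrected to a baseline, so that each probe has a median of 0 over the 24 arrays; it served as an alternative. Here the background-subtracted, processed signal was put on the log2 scale and the 75th percentile of the transcript probes of each array was subtracted. A probe was tested where, in any of the 6 groups, each of the 4 arrays had it well above background; control spots were left out. The test was limma 3.58.1 (lmFit and eBayes, R 4.3.3) on the 8 arrays, and p-values were adjusted by Benjamini-Hochberg. The fold limit of 2 and the adjusted p limit of 0.05 were those of the methods of the study, which name no test. Interaction contrasts with low P and low T used all 24 arrays in 1 fit, and low N, low P and low T share no control arrays. Tables and plots were made with Python 3.11.15, numpy 2.4.6, pandas 2.3.3 and matplotlib 3.10.9. On simulated data with 31000 probes and 200 changed ones, the fit of low N against control N recovered 48.5% at 2.5-fold, 77% at 4-fold and 91.5% at 8-fold. False calls there were 6, 3 and 12. The simulated noise was independent between arrays, without the split by replicate number of the real arrays, so recovery in the real data can differ. The number of arrays limits the precision.

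Probe names, descriptions and pathway lists came from the supplementary tables of the study (build 4a.53 names, assigned by homology), from which no value was taken; 2440 of 3962 loci matched 1 gene of the RefSeq table. Members and lists were chosen with earlier results of these data known, and lists were described by counts and medians without a test. Named were all called members of the nitrate, GS/GOGAT, Asp/Asn/Ala and phosphate lists and called members of the other lists; the 15 largest rises and falls and the 5 lowest adjusted p each way among called, named probes well above background on all 8 arrays without overlap; the 5 largest bounds each way; and the transcription factors among them with the largest changes. Members not called are given as examples beside them.

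Deviations from the group means correlated between same-numbered low N and control N arrays (0.35, 0.36, 0.28 and 0.18 for replicates 1 to 4). From these correlations only, the numbers were taken to pair the arrays in alternative fits. The main fit, which gave the calls, SE and adjusted p above unless stated, was unpaired. With replicates 1 and 2 against 3 and 4 as a term 7435 probes had an adjusted p under 0.05, against 3493 in the main fit. Arrays of replicates 1 and 2 also correlated with each other, as did those of 3 and 4, and the number cannot be told apart from that split. Alternatives were quantile normalisation, scaling on spike-ins, normexp background correction (on the median spot signal with an offset of 50), the series table, other background filters, call limits, fits with all arrays, replicate number, the split or slide, and each array left out.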

Additional observations from a re-analysis of the deposited data

Results flagged for a closer look

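In 270 groups of 4 arrays the gap of the highest or lowest array to its neighbour was set against the whole range of the group, and passed the critical value of Dixon for 4 values in the cases below. Chance passes it in about 1 in 20 groups, and the cases below were fewer than that share of the 270. Sucrose phosphate synthase GRMZM2G013166 passed it in both groups, by replicate 3 in low N (0.837; 4.55, the others 4.99 to 5.07) and by replicate 3 in control N (0.838; 6.57, the others 6.85 to 6.90). Serine O-acetyltransferase GRMZM2G013430 passed it by low N replicate 4 (0.850; -1.48, the others -1.08 to -1.01). In control N, replicate 4 stood apart for PHF-like GRMZM2G158489 (0.915), purple acid phosphatase GRMZM2G134054 (0.852) and cysteine protease GRMZM2G070011 (0.912), and replicate 2 for NRT1.1-like GRMZM2G161459 (0.866), Tesmin-like GRMZM2G153754 (0.908), subtilisin-like GRMZM2G013986 (0.854) and the 75th percentile of the array signal (0.833).

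The low N change differed from that of another stress by an interaction contrast (limma, adjusted over all probes tested) in the following cases. For nitrate reductase the low N minus low P difference was -1.94 at GRMZM2G142386, -1.93 at GRMZM2G104898, -2.13 at GRMZM2G428027 and -1.81 at GRMZM2G076723. The low N minus low T difference was -1.91 at GRMZM2G142386, -3.25 at GRMZM2G104898, -3.35 at GRMZM2G428027 and -1.82 at GRMZM2G076723, and it was -1.55 for nitrite reductase GRMZM2G079381 and -2.72 for the siroheme enzyme GRMZM2G000739. Of the phosphate lists, the low N change differed from the low P change in 6 of 6 PHT1 transporters, 9 of 10 SPX proteins, 12 of 12 acid phosphatases and 34 of all 54 members, where 19.9% of all probes differed. It differed from the low T change in 3 of 10 SPX proteins, 2 of 12 acid phosphatases and 11 of all 54 members. These low T counts were near the 22.5% of all probes that differed. Slide and group cannot be told apart in the low P values, and low T leaves were leaf 5 on day 20.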

How the results depend on the processing

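No named and called transcript turned its direction under any alternative that was run. Named members that were not called counted as turned only where an alternative called them. Their small changes can differ in sign with the spike-in scalings. Of 131 named and called transcripts 40 kept the call under each alternative, and the others lost it under at least 1: 57 with scaling on 10 spike-in probes, 50 on 7 spike-in probes, 19 with normexp, 21 without a background filter, 69 in the test against 1.5-fold, 6 with quantile normalisation, 11 with slide as a random block, 5 with the replicate block, 3 in the fit of all 24 arrays, 1 with the series table, up to 28 without 1 array, 13 with replicates 1 and 2 alone and 71 with replicates 3 and 4 alone. The calls over all probes (1828, 845 higher, 983 lower, 46.2% higher) came to 3161 on 7 spike-in probes (2864 higher, 297 lower, 90.6% higher), and with 10 spike-in probes 1602 were higher and 249 lower (86.5% higher). With normexp 1181 were called (499 higher), against 1.5-fold 401 (124 higher, 277 lower, 30.9% higher), without a fold limit 3493 (1678 higher, 1815 lower) and with slide as a random block 3355 (1651 higher, 1704 lower). A fit with replicates 1 and 2 against 3 and 4 as a term gave 2602 calls (1283 higher, 1319 lower), and no named call was lost there. The replicate block gave 2215 calls and ended no named call other than the 5 given beside their values. Leaving out 1 array gave 1188 to 1715 calls, with 478 to 842 higher, 692 to 943 lower and 40.2% to 51.1% higher. In an alternative chosen after seeing the data, replicates 1 and 2 alone gave 3164 calls (1387 higher, 1777 lower) and replicates 3 and 4 alone 662 (412 higher, 250 lower, 62.2% higher). The cause of these shifts was not tested. Scan time and slide were the same split, so scan day gave no fit of its own, and the planned count of promoter motifs and its other window were not run. Transcripts near background are limited by it, as 32 calls were not well above background on any low N array and 3 on any control N array.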
